A study of Mus musculus with 16 samples.

Results

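Genes of the DNA replication machinery were followed in mouse embryonic stem cells with and without Dgcr8. The set was a fixed list of 43 gene symbols, matched by Ensembl identifier to the gene table, and 41 of them were measured among 41202 identifiers in all; Cdt1 and Gins2 were not analysed here. All 41 reached at least 1 FPKM (fragments per kilobase of transcript scaled to library size) in all 8 libraries, so none was lost to the filter on low values.

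Total RNA came from wild-type cells (line v65) and Dgcr8-/- cells (line ES1), both of strain 129/C57BL/6. Each genotype was sampled in 2iL (0 h), where LIF and inhibitors of MEK and GSK3 hold cells in the naive state, and after 48 h of differentiation in N2B27 medium with bFGF and KSR. Each of the 4 groups held 2 libraries, which the design calls biological replicates; the sources used here do not say what was repeated, so the p-values measure the spread between these libraries, which may be technical. Each genotype was 1 line, so genotype and line cannot be told apart in any comparison between them.

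Dgcr8 is the RNA-binding partner of Drosha, and cells without it lack most miRNAs. Dgcr8 itself was at 18.3 to 20.9 FPKM in wild-type and 7.80 to 9.33 FPKM in knockout libraries, so a transcript signal remained, and a gene-level value does not show which exons it came from. FPKM summed to 533445 to 548453 in wild-type and 475271 to 511732 in knockout libraries, and 11415 to 12030 genes reached 1 FPKM. The sources used here give no read numbers; from the spacing of low values the libraries held 0.902 to 1.334 times the reads of the first wild-type 2iL library. All 8 stem cell markers reached 1 FPKM in at least 1 library, and they summed to 3560 FPKM in both wild-type 2iL, 1560 to 1640 in wild-type 48 h, 4670 to 5110 in knockout 2iL and 2990 to 3110 in knockout 48 h libraries. The naive-state genes Nanog, Esrrb and Zfp42 fell less in the knockout, with interactions of 2.75, 3.002 and 2.77. They were higher there at 48 h (log2 3.18, 3.12 and 2.45), although Zfp42 was lower there in 2iL (−0.31). Among all 8 stem cell markers, 6 were higher in the knockout at 48 h, and Utf1 (−0.385) and Sall4 (−0.27) were lower. The interaction was called for 5, all positive, and not for Pou5f1, Utf1 and Sall4. Of 10 fibroblast and feeder markers 6 were under 1 FPKM in all libraries, with Col3a1, Postn and Lum under 0.1; the list summed to 350 to 362 FPKM in wild-type 2iL, 55.9 to 57.9 in wild-type 48 h, 608 to 664 in knockout 2iL and 541 to 550 in knockout 48 h libraries. Most of that sum was Vim (35.1 to 662 FPKM), which fell in wild-type cells (log2 −3.26); the other 3 tested genes of the list, Thy1, Dcn and Tagln, rose by 1.58, 1.57 and 2.87 in wild-type and by 1.44, 3.70 and 0.61 in knockout cells. Of 8 primitive endoderm markers 7 were under 1 FPKM in all libraries, with sums of 1.94 to 2.06, 2.42 to 3.10, 1.76 to 2.33 and 1.70 to 1.72 FPKM in the same order. Of 8 trophectoderm markers Cdx2, Elf5 and Hand1 were under 1 FPKM in all libraries, with sums of 27 to 27.1, 13.4 to 14.7, 37.2 to 40.3 and 19.8 to 20.3 FPKM. Their part in the results was not tested. In bulk RNA, fewer cells in S phase and less replication RNA per cell cannot be told apart.

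Replication starts at origins bound by the origin recognition complex, on which Cdc6 and Cdt1 load a ring of MCM proteins, the core of the replicative helicase. Cdc45 and the GINS complex switch that helicase on, the primase and 3 polymerase complexes copy the strands with the sliding clamp Pcna, and Rpa coats the single strands in between. Embryonic stem cells are known for a short G1 phase and a large fraction of cells in S phase. Many replication genes are known targets of E2F factors, which are held back by the pocket proteins Rb1, Rbl1 and Rbl2.

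Because these genes share a regulator class in textbook accounts, their promoter sequences are shown first. RefSeq windows (build GRCm38.p6, 250 bases before to 50 after each annotated start) were matched for 34 of the 41 measured genes, in 41 windows. Gins1, Gins4, Gmnn, Mcm4, Pole, Prim2 and Rfc2 had no window and were not searched. The E2F-type words TTTGGCGC or TTTCGCGC, searched on both strands, were present in 8 of 41 member windows (19.5%), against 0.813% of 32851 windows of all genes and 1.52% of 12400 windows of genes tested here. The 8 genes were Lig1, Mcm3, Mcm5, Mcm6, Mcm8, Orc1, Pole2 and Rfc3. In 4 of them (Mcm5, Mcm6, Orc1 and Rfc3) the words lay upstream of the start, and in the other 4 within the first 50 bases after it. The sequences below run 5′ to 3′ on the gene's strand, with the matched words in capitals. The Orc1 stretch, chr4:108579397-108579453 (+), ends at the base before the start used for its window and lies inside the longest annotated span of the gene. The Mcm5 stretch is chr8:75109326-75109397 (+), the Mcm6 stretch chr1:128359715-128359845 (-) and the Rfc3 stretch chr5:151651209-151651248 (-).
Mcm5: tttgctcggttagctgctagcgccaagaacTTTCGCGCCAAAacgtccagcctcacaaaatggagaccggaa
Mcm6: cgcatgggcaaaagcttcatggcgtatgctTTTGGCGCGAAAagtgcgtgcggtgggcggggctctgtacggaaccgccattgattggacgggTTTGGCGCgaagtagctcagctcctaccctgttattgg
Orc1: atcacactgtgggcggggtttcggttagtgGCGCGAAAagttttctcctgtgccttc
Rfc3: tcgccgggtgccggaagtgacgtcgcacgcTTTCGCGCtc

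In Mcm5 and in the first Mcm6 match, words on both strands overlap and form one longer run. Mcm5, Mcm6 and Orc1 were lower in the knockout in 2iL and at 48 h. Rfc3 was called in neither comparison (log2 −0.12 in 2iL and −0.11 at 48 h). Among the genes with words after the start, Mcm8 and Pole2 were lower at both times and Lig1 in 2iL alone. Mcm3 was not called in 2iL and was higher in the knockout at 48 h. The CCAAT box, CCAAT on either strand, was in 56.1% of member windows, 37.4% of all windows and 38.3% of windows of tested genes. The cell cycle homology word TTTGAA, which marks many mitotic genes, was in 12.2%, 17.9% and 11.8%. A match describes letters in a window and not binding.

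The replication genes were expressed at high and uneven levels. Averaged over the 8 libraries, Pcna was highest at 251 FPKM, followed by Mcm5 (168), the ribonucleotide reductase subunit Rrm2 (148), Mcm2 (145), Mcm3 (142), Rpa1 (115), Mcm6 (104) and Lig1 (102). The lowest were the polymerase epsilon subunit Pole2 (14.3), Mcm8 (8.95) and Gins3 (7.07), and 30 genes lay in between. FPKM is per length, so these levels can be set beside each other. Single values ran from 4.09 to 303 FPKM, and the 41 genes together took 0.551 to 0.552% of summed FPKM in wild-type 2iL, 0.517 to 0.519% in wild-type 48 h, 0.463 to 0.474% in knockout 2iL and 0.498 to 0.501% in knockout 48 h libraries. The share was lowest in both knockout 2iL libraries, and no 2 groups overlapped.

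**Figure D1:**
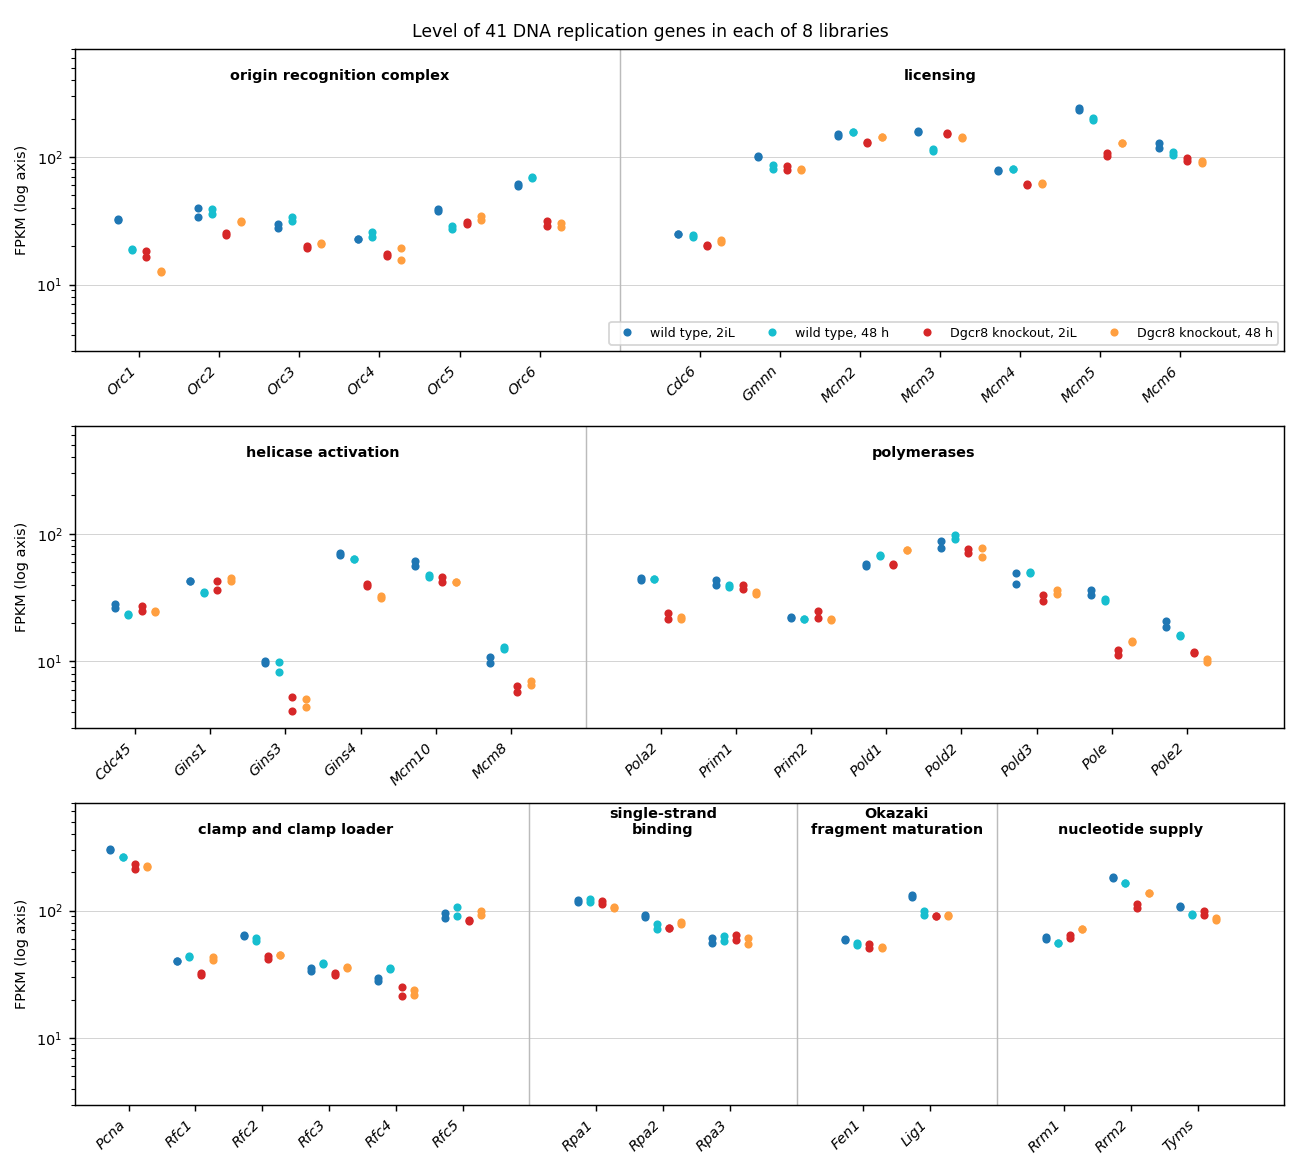
Level of each of the 41 measured replication genes in FPKM (log axis) in each of the 8 libraries, grouped by role; each point is 1 library and colours mark the 4 groups. Both knockout groups lie below both wild-type groups for Orc6, Mcm5, Gins4, Pola2 and Pole, while Mcm3, Rrm1 and Pold1 do not follow that pattern.

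The first question was whether the replication genes differed between genotypes in 2iL, before any differentiation. With limma on log2(FPKM + 1) and Benjamini-Hochberg adjustment over 13172 genes, 29 of 41 (70.7%) were lower in the knockout and none was higher, where 32.8% of all tested genes were lower and 30.6% higher (63.4% called in all). At an unadjusted p below 0.05, 30 were lower and 0 higher. Here and below, the tested genes include any that reached 1 FPKM in 2 libraries. They were not matched to the 41 for expression level. Their median log2 difference was −0.34, against −0.02 over all tested genes, and the range ran from −1.50 (Pole) to 0.08 (Rpa3). The lower genes came from every role: 6 of 6 origin recognition genes, 6 of 7 licensing genes, 4 of 6 helicase activation genes, 4 of 8 polymerase genes, 4 of 6 clamp and clamp loader genes, 1 of 3 Rpa genes, both Okazaki fragment genes and 2 of 3 nucleotide supply genes.

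How many of these calls held depended on how libraries were scaled. Dividing each library by its sum of FPKM, an alternative added after seeing the data, moved the median of all tested genes by 0.129 in 2iL and 0.147 at 48 h. In 2iL that scaling gave 23 lower and 6 higher (Mcm3, Prim2, Pold1, Rpa1, Rpa3, Rrm1), and quantile normalization gave 24 lower and 5 higher (Mcm3, Pold1, Rpa1, Rpa3, Rrm1). Relative to the median of all tested genes the replication genes' median stood at −0.32 as deposited, −0.30 after scaling to the sum and −0.16 after quantile normalization. Of the 29 genes called lower, 21 were lower under every setting tried; the other 8 were Cdc6, Gmnn, Mcm2, Orc4, Rfc4, Rpa2, Fen1 and Tyms.

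At 48 h, 24 of 41 (58.5%) were lower in the knockout and 5 (12.2%) higher, against 38.5% and 33.3% of all tested genes (71.8% called in all). The median log2 difference was −0.18 against −0.05 over all tested genes, and the range was −1.20 (Orc6) to 0.36 (Rrm1). The higher genes were Orc5, Mcm3, Gins1, Pold1 and Rrm1. Quantile normalization gave 16 lower and 9 higher, and scaling to the sum gave 18 lower and 9 higher; relative to the median of all genes the replication genes stood at −0.13 as deposited, −0.12 after scaling to the sum and −0.001 after quantile normalization. Of the 29 calls at 48 h, 20 held under every setting.

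The libraries of these 2 comparisons are separate, but both set the same lines against each other. Both also come from the same fit with a shared estimate of spread, so their calls are not independent. In both comparisons 21 genes were lower, which is 21 of the 29 in 2iL and 21 of the 24 at 48 h. That is 51.2% of the 41, against 24.4% of all tested genes lower in both. For 13 of the 21 both calls held under every setting; for Orc2, Orc4, Mcm2, Mcm6, Pcna, Rfc4, Rrm2 and Tyms at least 1 was lost under some. Another 7 were called lower in 2iL alone (Cdc6, Gmnn, Mcm10, Rfc1, Rpa2, Fen1, Lig1) and 3 at 48 h alone (Prim1, Pold2, Rpa1). Orc5 was lower in 2iL and higher at 48 h. Cdc45, Prim2, Rfc3, Rfc5 and Rpa3 were called in neither.

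**Figure D2:**
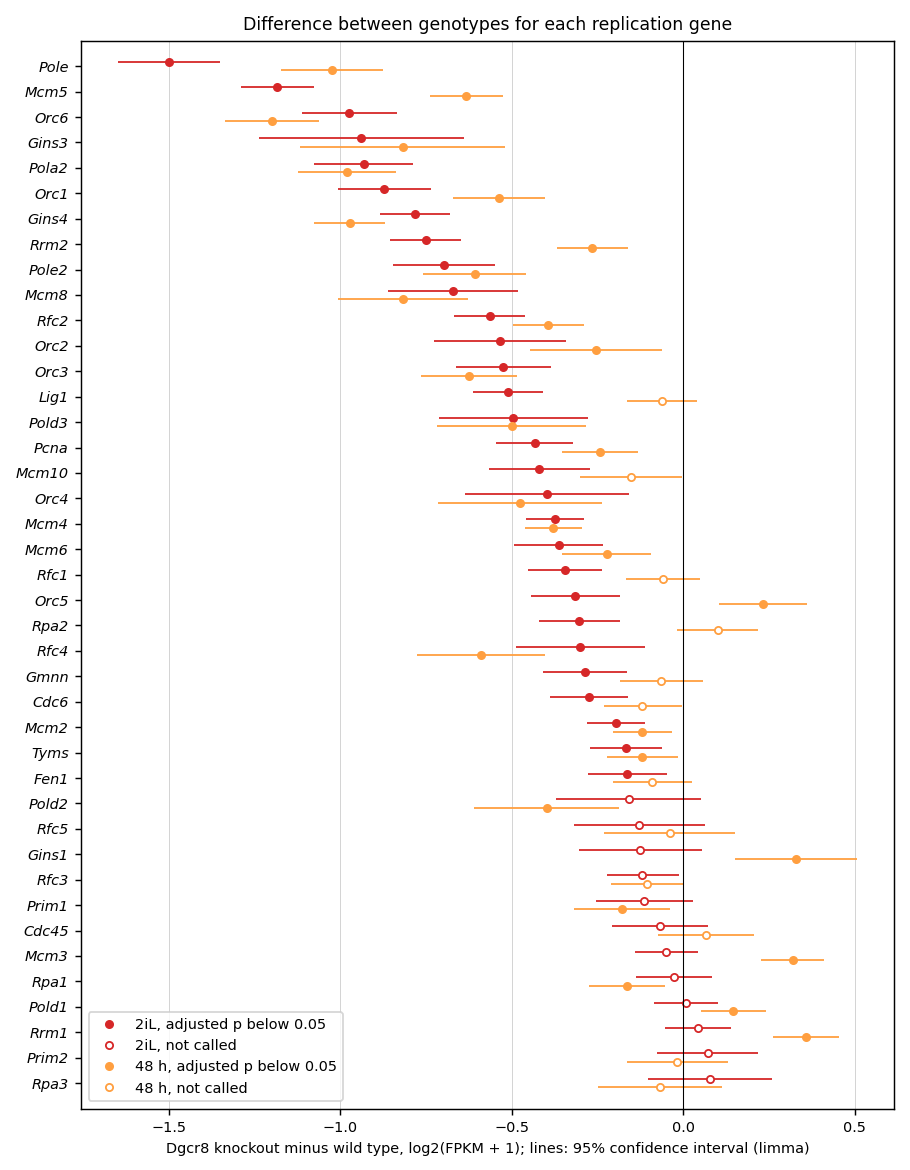
Log2 difference of knockout minus wild type for each replication gene, in 2iL (red) and at 48 h (orange); lines are 95% confidence intervals from limma and filled points have an adjusted p below 0.05. In 2iL 29 filled points lie left of 0 and none right of it; at 48 h 24 lie left and 5 right.

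From 2iL to 48 h, log2 changes of the 41 genes ran from −0.762 to 0.288 in wild-type cells. In knockout cells they ran from −0.428 to 0.399. In wild-type cells 17 of 41 (41.5%) fell and 6 (14.6%) rose by 48 h, against 25.6% and 30.9% of all tested genes (56.5% called in all), with a median log2 change of −0.10 against 0.03. The share of the 41 called in either direction was thus close to that of all tested genes. Of the 41 only Orc1 moved by 0.5 or more, while the epsilon subunit Pole4, which is off the list, moved by −0.838. How many of all tested genes moved that far in either genotype was not counted. The genes that rose were Orc3, Orc6, Mcm8, Pold1, Rfc3 and Rfc4; under quantile normalization 8 rose and 14 fell. Without the second wild-type 48 h library 10 fell and 2 rose, without the first 12 fell and 2 rose, and without the first wild-type 2iL library 13 fell and 3 rose. Calls that held under every setting were 11 of 23: the falls of Gmnn, Lig1, Mcm10, Mcm3, Mcm5, Orc1, Orc5, Pole2, Rpa2 and Tyms, and the rise of Pold1.

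In knockout cells 9 (22.0%) rose and 4 (9.76%) fell by 48 h, against 26.5% and 21.8% of all tested genes (48.3% called in all), with medians of 0.01 and 0.03. The rises were those of Orc2, Mcm2, Mcm5, Pold1, Pole, Rfc1, Rfc3, Rrm1 and Rrm2, and the falls those of Orc1, Gins4, Pole2 and Tyms. After median-ratio scaling 9 rose and 7 fell, and of the 13 calls 8 held under every setting. No replication gene changed by 0.5 or more. Mcm5, Pole, Rrm1 and Rrm2 fell in wild-type and rose in knockout cells, Orc1, Pole2 and Tyms fell in both, Pold1 and Rfc3 rose in both, and 14 genes were called in neither.

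The difference between the 2 changes was tested directly as an interaction. It was positive (a fall that was smaller, or a rise that was larger, in knockout than in wild-type cells) for 13 of 41 (31.7%) and negative for 1 (2.44%), against 21.1% and 21.7% of all tested genes (42.8% called in all). The positive genes were Orc1, Orc5, Gmnn, Mcm3, Mcm5, Gins1, Mcm10, Pole, Rfc1, Rpa2, Lig1, Rrm1 and Rrm2, and the negative one was Gins4. Quantile normalization gave 13 positive and 4 negative. Of the 14 calls 10 held under every setting; Gins4 was lost under 10 of 15, Gmnn and Mcm10 under 9 of 15 each, and Orc1 without the second wild-type 48 h library (adjusted p = 0.051, with a range of 0.0057 to 0.051 over its settings, limma). The interaction uses the same libraries as the comparisons above and is not independent of them.

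**Figure D3:**
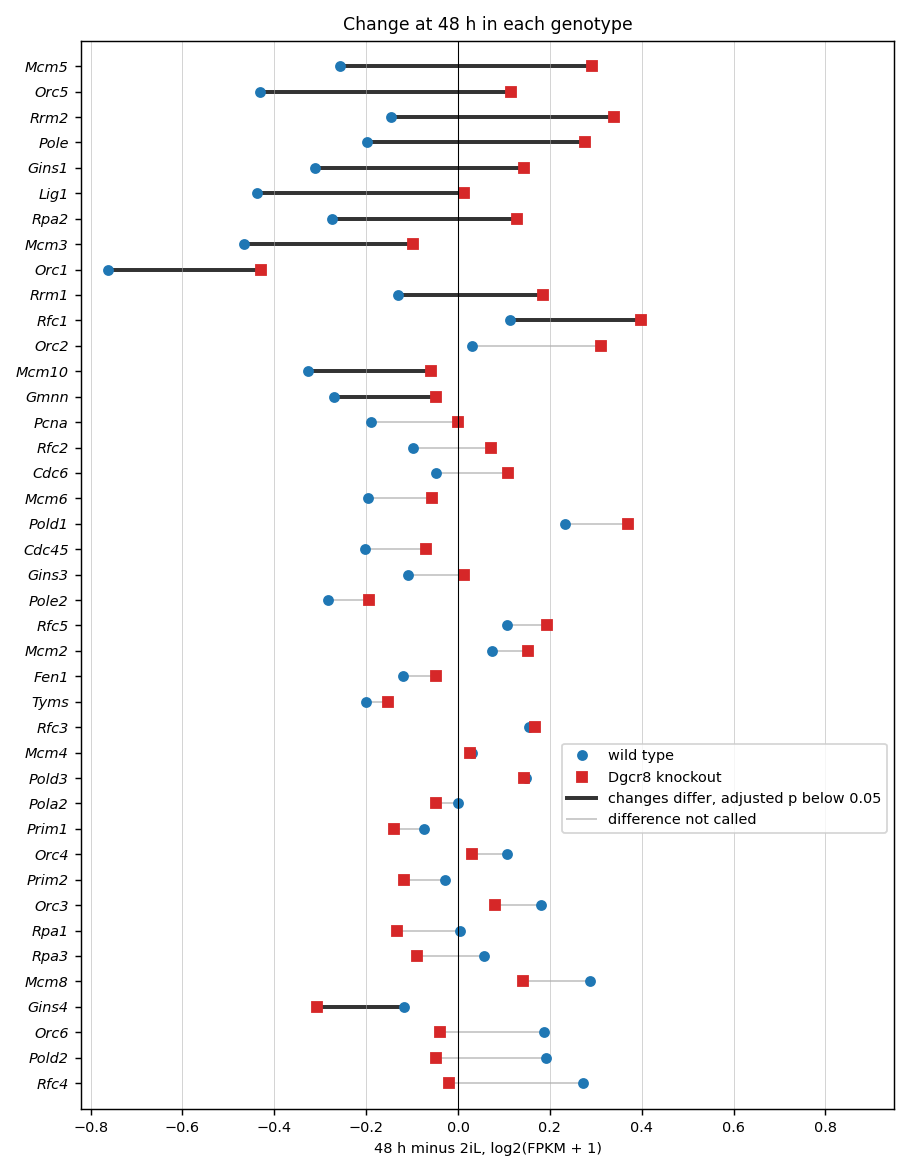
Log2 change from 2iL to 48 h for each replication gene in wild-type (blue circles) and Dgcr8 knockout cells (red squares), ordered by the difference of the 2 changes; dark lines mark the 14 genes whose changes differ at an adjusted p below 0.05. For Mcm5, Pole, Rrm1 and Rrm2 the circles lie left of 0 and the squares right of 0.

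The origin recognition complex, which marks the sites where helicases are loaded, was lower in knockout 2iL cells in all 6 subunits. Orc6, the smallest subunit (chr8:85299632-85308279), stood at 61.8 and 59.1 FPKM in wild-type 2iL, 69.6 and 68.2 in wild-type 48 h, 29.0 and 31.6 in knockout 2iL and 28.4 and 30.5 in knockout 48 h libraries. Both knockout groups lay well below both wild-type groups, with log2 differences in 2iL of −0.97 (SE 0.06, limma adjusted p = 1.1e-05) and at 48 h of −1.20 (adjusted p = 2.2e-06). Its rise in wild-type cells was small (0.19, adjusted p = 0.028) and was lost without any one of the 4 wild-type libraries (adjusted p up to 0.13).

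Orc1, the ATPase subunit whose level is known to vary with the cell cycle, was at 32.3 and 33.0 FPKM in wild-type 2iL, 19.0 and 18.7 in wild-type 48 h, 16.5 and 18.2 in knockout 2iL and 12.6 and 12.7 in knockout 48 h libraries. The 4 groups did not overlap, and Orc1 fell with differentiation in both genotypes, by 0.76 on the log2 scale in wild-type (limma adjusted p = 2.8e-05) and by 0.43 in knockout cells (adjusted p = 0.00077). The genotype difference was −0.87 in 2iL (adjusted p = 1.6e-05) and −0.54 at 48 h (adjusted p = 0.00011). Wild-type cells at 48 h and knockout cells in 2iL were thus at similar levels, 18.7 to 19.0 against 16.5 to 18.2 FPKM; that pair was not tested. The span of Orc1 overlaps that of Prpf38a, and whether counting used strand was not given.

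Orc3, a core subunit, was at 27.9 and 29.7, 31.4 and 34.2, 19.3 and 20.1, and 20.7 and 21.0 FPKM in wild-type 2iL, wild-type 48 h, knockout 2iL and knockout 48 h libraries. Each knockout value was below each wild-type value, and the log2 differences were −0.53 in 2iL (limma adjusted p = 0.00020) and −0.63 at 48 h (adjusted p = 5.7e-05). Its rise in wild-type cells (0.18, adjusted p = 0.034) was lost under 7 of 17 settings.

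Orc5 departed from its partners. It was at 37.5 and 38.9 FPKM in wild-type 2iL, 28.9 and 27.3 in wild-type 48 h, 29.9 and 31.2 in knockout 2iL and 34.2 and 32.1 in knockout 48 h libraries. It fell in wild-type cells (log2 −0.43, limma adjusted p = 0.00043) and was not called in knockout cells (0.12, adjusted p = 0.12), and the 2 changes differed by 0.55 (SE 0.08, adjusted p = 0.0013). The genotype difference turned from −0.32 in 2iL to 0.23 at 48 h. Dividing a library by a single factor cannot alter a ratio of genes within it, whereas quantile normalization can. The ratio of Orc6 to Orc5 was 1.65 and 1.52 in wild-type 2iL and 2.41 and 2.5 in wild-type 48 h libraries. It was 0.972 and 1.01 in knockout 2iL and 0.829 and 0.952 in knockout 48 h libraries. This pair, like the other ratios given here, was chosen after the values were seen. Each ratio sets a gene lower in the knockout over one less lowered or not lowered, so its direction follows from that choice. Orc2 and Orc4 were also lower in the knockout at both times, with log2 differences of −0.53 and −0.40 in 2iL; the Orc4 call in 2iL was lost without the second knockout 2iL library (adjusted p up to 0.064 over its settings), and the Orc2 call at 48 h (−0.25, adjusted p = 0.025) under 7 of 17 settings (adjusted p up to 0.35).

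Licensing genes split between partners. Mcm5, a subunit of the ring formed by Mcm2 to Mcm7 (chr8:75109468-75128439), was at 242 and 235 FPKM in wild-type 2iL, 203 and 196 in wild-type 48 h, 101.1 and 108 in knockout 2iL and 128 and 128 in knockout 48 h libraries. Every knockout library was below every wild-type library, and the gap was narrower at 48 h. Mcm5 was lower by −1.18 in 2iL (SE 0.04, limma adjusted p = 2.1e-06) and by −0.63 at 48 h (adjusted p = 1.4e-05); it fell by 0.26 in wild-type cells (adjusted p = 0.0021) and rose by 0.29 in knockout cells (adjusted p = 0.0015), an interaction of 0.55 (adjusted p = 0.00053). All of these calls held under every setting.

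Mcm3, another ring subunit, was at 159.7 and 156 FPKM in wild-type 2iL, 116 and 113 in wild-type 48 h, 151 and 155 in knockout 2iL and 145 and 141 in knockout 48 h libraries. Only the wild-type 48 h libraries stood apart, below the rest. The gene was not called between genotypes in 2iL (log2 −0.05, limma adjusted p = 0.30), fell in wild-type cells (−0.47, adjusted p = 4.8e-05) and was higher in the knockout at 48 h (0.32, adjusted p = 0.00022). In 2iL Mcm3 was called higher after quantile normalization and after scaling to the sum.

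The ratio of Mcm5 to Mcm3 was 1.52 and 1.51 in wild-type 2iL, 1.75 and 1.74 in wild-type 48 h, 0.672 and 0.698 in knockout 2iL and 0.886 and 0.913 in knockout 48 h libraries. Subunits of the same ring thus changed rank: Mcm5 exceeded Mcm3 in all 4 wild-type libraries and lay below it in all 4 knockout libraries. Mcm7, the ring subunit that is not on the list of 43, was at 178 and 177 FPKM in wild-type 2iL, 172 and 169 in wild-type 48 h, 211 and 224 in knockout 2iL and 239.6 and 244 in knockout 48 h libraries, higher in the knockout by 0.29 in 2iL (limma adjusted p = 0.00066) and 0.50 at 48 h (adjusted p = 2.8e-05).

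The remaining ring subunits were lower in the knockout at both times but by less. Mcm4 differed by −0.38 in 2iL and −0.38 at 48 h (limma adjusted p = 8.7e-05 and 5.5e-05) and Mcm6 by −0.36 and −0.22 (adjusted p = 0.00090 and 0.0082), the latter lost under 4 of 17 settings: without the first wild-type or the second knockout 48 h library, after scaling to the sum and after quantile normalization, which left −0.04 (adjusted p = 0.42). For Mcm2 the values were −0.20 and −0.12 (adjusted p = 0.0023 and 0.020), and its direction turned to 0.06 in 2iL and 0.12 at 48 h under quantile normalization and to 0.05 at 48 h after scaling to the sum; its 48 h call was lost under 8 of 17 settings. The loading factor Cdc6 (−0.28, adjusted p = 0.0018) and the licensing inhibitor Gmnn (−0.29, adjusted p = 0.0021) were lower in 2iL; scaling to the sum ended the Cdc6 call and quantile normalization the Gmnn call. At 48 h Gmnn was at 80.8 to 86.5 FPKM in wild-type and 79.5 to 80.3 FPKM in knockout libraries.

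The genes that switch the helicase on divided within the GINS complex. Gins4 (chr8:23226610-23237668) was at 67.7 and 70.5 FPKM in wild-type 2iL, 63.5 and 63.7 in wild-type 48 h, 39.3 and 40.2 in knockout 2iL and 32.6 and 31.2 in knockout 48 h libraries. The 4 groups did not overlap, and the knockout was lower by −0.78 in 2iL (SE 0.04, limma adjusted p = 8.1e-06) and −0.97 at 48 h (adjusted p = 1.5e-06). Gins4 was the 1 gene with a negative interaction, a call lost under most settings.

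Gins3 was at 10.01 and 9.64, 8.23 and 9.92, 4.09 and 5.26, and 5.03 and 4.38 FPKM in wild-type 2iL, wild-type 48 h, knockout 2iL and knockout 48 h libraries. It was the gene with the lowest mean level, and its differences of −0.94 (SE 0.13, limma adjusted p = 0.00050) and −0.82 (adjusted p = 0.00080) carried the largest standard error of the 41.

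Gins1, another subunit, was at 43.0 and 42.9 FPKM in wild-type 2iL, 34.7 and 34.1 in wild-type 48 h, 36.1 and 42.7 in knockout 2iL and 44.7 and 42.3 in knockout 48 h libraries. Only the wild-type 48 h pair lay below the others. Gins1 was not called in 2iL (−0.13, limma adjusted p = 0.19) and was higher in the knockout at 48 h (0.33, adjusted p = 0.0058). The ratio of Gins4 to Gins1 was 1.57 and 1.64 in wild-type 2iL, 1.83 and 1.87 in wild-type 48 h, 1.09 and 0.942 in knockout 2iL and 0.729 and 0.738 in knockout 48 h libraries.

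Mcm8, an MCM relative outside the ring that is known for recombination repair, was at 9.70 and 10.8, 13.0 and 12.4, 5.75 and 6.38, and 7.01 and 6.57 FPKM in the same order of groups. Each knockout value was below each wild-type value (−0.67 in 2iL, limma adjusted p = 0.00027; −0.82 at 48 h, adjusted p = 7.0e-05). Mcm10, a factor needed for helicase start, was lower in 2iL (−0.42, adjusted p = 0.00085) and not called at 48 h (−0.15, adjusted p = 0.063). Cdc45, the helicase partner of GINS, was at 23.3 to 28.1 FPKM in all 8 libraries and fell in wild-type cells (−0.20, adjusted p = 0.022), a call lost without the second wild-type 2iL or either wild-type 48 h library.

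Among the listed polymerase genes, Pole and Pole2 of epsilon and the alpha regulatory subunit Pola2 were lower in the knockout at both times, and the catalytic subunit of delta was not. Pole, the catalytic subunit of the leading-strand polymerase epsilon (chr5:110286319-110337468), was at 33.4 and 36.2 FPKM in wild-type 2iL, 30.8 and 29.5 in wild-type 48 h, 12.2 and 11.1 in knockout 2iL and 14.3 and 14.3 in knockout 48 h libraries. Knockout levels were below every wild-type level, by −1.50 in 2iL (SE 0.06, limma adjusted p = 2.9e-06), the largest difference of any replication gene, and by −1.03 at 48 h (adjusted p = 6.7e-06). Pole rose in knockout cells (0.28, adjusted p = 0.0094); its fall in wild-type cells (−0.20, adjusted p = 0.030) was lost under 6 of 17 settings, among them leaving out the second wild-type 2iL, either wild-type 48 h or either knockout 48 h library.

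Pole2, the second subunit of epsilon, was at 18.7 and 20.6, 16.0 and 15.9, 11.6 and 11.8, and 10.4 and 9.79 FPKM in wild-type 2iL, wild-type 48 h, knockout 2iL and knockout 48 h libraries. No 2 groups overlapped, and the genotype differences were −0.70 and −0.61 (limma adjusted p = 7.1e-05 and 9.7e-05). Its small fall in knockout cells (−0.19, adjusted p = 0.040) was lost under 9 of 16 settings. The small epsilon subunits, which are not among the 43, went different ways: Pole3 was lower in the knockout at both times (−0.57 and −0.55, adjusted p = 0.00093 and 0.00091), and Pole4 was lower in 2iL (−0.32, adjusted p = 0.0011) and higher at 48 h (0.47, adjusted p = 0.00010).

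Pola2, the regulatory subunit of the polymerase alpha-primase that lays down primers, was at 45.1 and 43.1 FPKM in wild-type 2iL, 44.4 and 43.9 in wild-type 48 h, 21.4 and 23.9 in knockout 2iL and 21.4 and 22.3 in knockout 48 h libraries. The genotypes did not overlap, and no change with time was called (0.00 in wild-type, limma adjusted p = 0.99; −0.05 in knockout cells, adjusted p = 0.55). The genotype differences were −0.93 (adjusted p = 1.6e-05) and −0.98 (adjusted p = 7.1e-06). Its primase partner Prim2 stayed at 21.1 to 24.6 FPKM in all 8 libraries, and the ratio of Pola2 to Prim2 was 2.06 and 1.95 in wild-type 2iL, 2.06 and 2.04 in wild-type 48 h, 0.984 and 0.972 in knockout 2iL and 1.00 and 1.06 in knockout 48 h libraries. Prim2 was called higher in the knockout after median-ratio scaling or scaling to the sum in 2iL. Pola1, the catalytic subunit of alpha and not among the 43, was higher in knockout 2iL cells (0.38, adjusted p = 0.00095) and not called at 48 h (0.07, adjusted p = 0.33).

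Pold1, the catalytic subunit of the lagging-strand polymerase delta, was at 58.5 and 56.2 FPKM in wild-type 2iL, 66.7 and 68.2 in wild-type 48 h, 58.3 and 57.0 in knockout 2iL and 74.5 and 74.9 in knockout 48 h libraries. It rose in both genotypes, by 0.23 (limma adjusted p = 0.0020) and 0.37 (adjusted p = 0.00027), and the genotypes did not separate in 2iL (0.01, adjusted p = 0.87, 95% interval −0.09 to 0.10). Its higher level in the knockout at 48 h (0.15, adjusted p = 0.013) was lost without the first wild-type or either knockout 48 h library. The ratio of Pole to Pold1 was 0.571 and 0.644 in wild-type 2iL, 0.462 and 0.432 in wild-type 48 h, 0.209 and 0.196 in knockout 2iL and 0.192 and 0.191 in knockout 48 h libraries. Pold3, an accessory subunit of delta, was nevertheless lower at both times (−0.50 and −0.50, adjusted p = 0.0025 and 0.0019), and Pold2 at 48 h (−0.40, adjusted p = 0.0053).

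**Figure D4:**
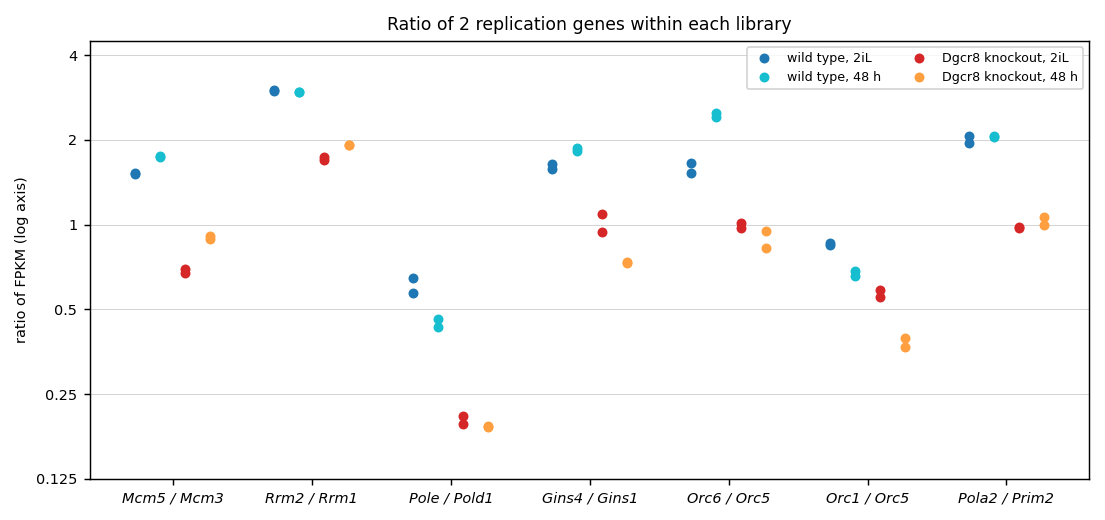
Ratio of the FPKM of 2 replication genes within each library (log axis), 1 point per library, for 7 pairs chosen after the values were seen. In each of the 7 pairs all 4 knockout points lie below all 4 wild-type points, for example at 0.672 to 0.913 against 1.51 to 1.75 for Mcm5 to Mcm3. Each pair sets a gene lower in the knockout over one less lowered or not lowered, so this separation follows from the choice of pairs.

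The clamp Pcna, which tethers polymerases to DNA, was at 303 and 296 FPKM in wild-type 2iL, 263 and 262 in wild-type 48 h, 212 and 231 in knockout 2iL and 220.0 and 223 in knockout 48 h libraries. The knockout groups overlapped each other and lay below both wild-type groups, with differences of −0.43 in 2iL (limma adjusted p = 0.00017) and −0.24 at 48 h (adjusted p = 0.0025), the latter lost under quantile normalization (adjusted p = 0.061, with a range of 0.00032 to 0.061). The fall of Pcna in wild-type cells (−0.19, adjusted p = 0.011) was lost without the first wild-type 2iL or either wild-type 48 h library.

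Of the clamp loader, Rfc2 was at 63.6 and 64.1, 61.2 and 58.0, 42.0 and 43.7, and 44.99 and 45.2 FPKM in wild-type 2iL, wild-type 48 h, knockout 2iL and knockout 48 h libraries, lower in the knockout by −0.57 (limma adjusted p = 3.3e-05) and −0.39 (adjusted p = 0.00013). Rfc4 was at 29.7 and 28.0, 34.5 and 35.5, 21.6 and 25.0, and 21.9 and 24.0 FPKM, lower by −0.30 in 2iL (adjusted p = 0.013) and −0.59 at 48 h (adjusted p = 0.00037). Both had knockout values under all wild-type values; the 2iL call of Rfc4 was lost without the first library of either 2iL group.

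Rfc1, the large subunit, rose in knockout cells (0.40, limma adjusted p = 0.00037) from 31.1 and 32.2 to 40.8 and 43.2 FPKM, and so went from below the wild-type level of 40.3 and 40.5 FPKM in 2iL (−0.34, adjusted p = 0.00047) to beside that of 44.4 and 43.2 FPKM at 48 h (−0.06, adjusted p = 0.28). Rfc3 and Rfc5 were not called between genotypes at either time. Their log2 differences in 2iL were −0.12 and −0.13 (adjusted p = 0.051 and 0.21).

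Of the 3 single-strand binding genes 1 differed between genotypes in 2iL and another at 48 h. Rpa1, the large subunit, was at 117 and 121, 122 and 116, 113 and 120, and 106 and 107 FPKM in wild-type 2iL, wild-type 48 h, knockout 2iL and knockout 48 h libraries. Its difference of −0.16 at 48 h (limma adjusted p = 0.016) was lost under 6 of 17 settings (adjusted p up to 1). Rpa2, the middle subunit, was at 89.7 and 91.5 FPKM in wild-type 2iL, 78.1 and 71.5 in wild-type 48 h, 73.0 and 73.5 in knockout 2iL and 81.6 and 78.8 in knockout 48 h libraries. The wild-type 2iL pair was the highest, and the gene fell in wild-type cells (−0.28, adjusted p = 0.0026) but was not called in knockout cells (0.13, adjusted p = 0.068), an interaction of 0.40 (adjusted p = 0.0035). Rpa3 was called in none of the 5 comparisons.

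Lig1, the ligase that joins Okazaki fragments, had the same form. It was at 133 and 127 FPKM in wild-type 2iL, 98.5 and 93.1 in wild-type 48 h, 91.5 and 90.3 in knockout 2iL and 91.3 and 92.0 in knockout 48 h libraries. The wild-type 2iL level stood alone: Lig1 fell in wild-type cells (−0.44, limma adjusted p = 0.00012), was not called in knockout cells (0.01, adjusted p = 0.84, 95% interval −0.09 to 0.11), and differed between genotypes in 2iL (−0.51, adjusted p = 5.1e-05) and not detectably at 48 h (−0.06, adjusted p = 0.23). The flap nuclease Fen1 was at 60.4 and 58.4, 55.3 and 53.9, 51.0 and 54.9, and 51.9 and 50.6 FPKM, and its small difference in 2iL (−0.16, adjusted p = 0.021) was lost under 6 of 17 settings.

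The nucleotide supply genes split within ribonucleotide reductase, the enzyme that makes deoxyribonucleotides. Rrm2, its small and cell cycle-regulated subunit (chr12:24708254-24714146), was at 185 and 180.0 FPKM in wild-type 2iL, 165 and 164 in wild-type 48 h, 104 and 112 in knockout 2iL and 138 and 136 in knockout 48 h libraries. The knockout was lower by −0.75 in 2iL (limma adjusted p = 1.0e-05) and −0.27 at 48 h (adjusted p = 0.0012), the latter lost under quantile normalization (adjusted p = 0.70, with a range of 0.00030 to 0.70). Rrm2 rose in knockout cells (0.34, adjusted p = 0.00065); its fall in wild-type cells (−0.15, adjusted p = 0.025) was lost without any one of the 4 wild-type libraries.

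Rrm1, the large subunit, was at 61.8 and 60.0 FPKM in wild-type 2iL, 55.9 and 55.2 in wild-type 48 h, 61.4 and 64.3 in knockout 2iL and 71.6 and 71.5 in knockout 48 h libraries. It was the replication gene with the largest excess in the knockout at 48 h (0.36, limma adjusted p = 0.00015) and rose in knockout cells (0.18, adjusted p = 0.0079), while its fall in wild-type cells (−0.13, adjusted p = 0.028) was lost under 9 of 17 settings. The ratio of Rrm2 to Rrm1 was 2.99 and 3.0 in wild-type 2iL, 2.95 and 2.97 in wild-type 48 h, 1.69 and 1.74 in knockout 2iL and 1.92 and 1.91 in knockout 48 h libraries. Thymidylate synthase, Tyms, was at 107 and 108, 93.8 and 93.1, 92.5 and 98.9, and 87.6 and 84.4 FPKM; its differences of −0.17 in 2iL (adjusted p = 0.014) and −0.12 at 48 h (adjusted p = 0.045) turned positive under quantile normalization, and the latter also after scaling to the sum. The 2iL call was lost under 5 and the 48 h call under 13 of 17 settings. Tyms fell in wild-type cells (−0.20, adjusted p = 0.0069).

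Lists of neighbouring pathways were read beside the replication genes. They were written with earlier results of these data known. For the lists below, the shares over all tested genes in 2iL were 32.8% lower and 30.6% higher in the knockout. At 48 h the shares were 38.5% and 33.3%. Of the 6 other replication subunits (Mcm7, Mcm9, Pola1, Pold4, Pole3, Pole4), 2 were higher and 2 lower in the knockout in 2iL (median log2 0.06), and 2 were higher and 1 lower at 48 h (median 0.19). In 2iL, 7 of 12 genes of origin firing were lower and 2 higher in the knockout. The lower ones were led by the cyclin Ccne1 (log2 −1.09, limma adjusted p = 3.7e-06) and the helicase Recql4 (−0.85). Ccne1 was at 87.5 and 81.8 FPKM in wild-type 2iL, 110 and 105 in wild-type 48 h, 38.9 and 39.5 in knockout 2iL and 41.5 and 43.1 in knockout 48 h libraries. Of 20 genes of fork protection and chromatin assembly 12 were lower and 1 higher, led by the histone chaperone Nasp (−1.11) and the fork protection factor Tipin (−1.11). Of 12 genes of nucleotide synthesis 9 were lower and none higher (1 higher and 9 lower at an unadjusted p below 0.05), among them the kinase Nme1 (−0.79) and Umps of pyrimidine synthesis (−0.74).

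The regulators went both ways. Of 13 E2F and pocket protein genes 7 were higher and 4 lower in knockout 2iL cells: the pocket proteins Rb1 (1.21, limma adjusted p = 5.8e-05) and Rbl2 (0.93, adjusted p = 4.1e-05) were higher, and E2f4 (−1.46, adjusted p = 2.1e-06) and the E2F partner Tfdp1 (−1.20, adjusted p = 2.6e-06) were lower. At 48 h 7 were higher and 5 lower, with Rbl2 at 1.80, E2f2 at 1.63 and Tfdp1 at −1.56. E2f2 was not called in 2iL (0.055). E2f1 and Tfdp2 were higher in the knockout at both times, at 0.40 and 0.35 in 2iL and 1.01 and 1.05 at 48 h.

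Mitotic genes were read as a second proliferation list. In 2iL 15 of 25 were lower and 2 higher in the knockout, led by Ccnb1 (−0.90), but at 48 h 7 were lower and 10 higher. In knockout cells 18 of 25 rose by 48 h and none fell (19 and 0 at an unadjusted p below 0.05), with the anaphase activator Cdc20 at 0.79 (limma adjusted p = 5.5e-06), where 9 of the 41 replication genes rose. In wild-type cells 3 rose and 6 fell. The interaction was positive for 14 of 25 mitotic genes and negative for none (15 and 0 at an unadjusted p below 0.05). Over all tested genes, 26.5% rose and 21.8% fell in knockout cells, and 30.9% rose and 25.6% fell in wild-type cells. Interactions were positive for 21.1% and negative for 21.7% of all tested genes. The difference between the mitotic and the replication lists was not tested.

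**Figure D5:**
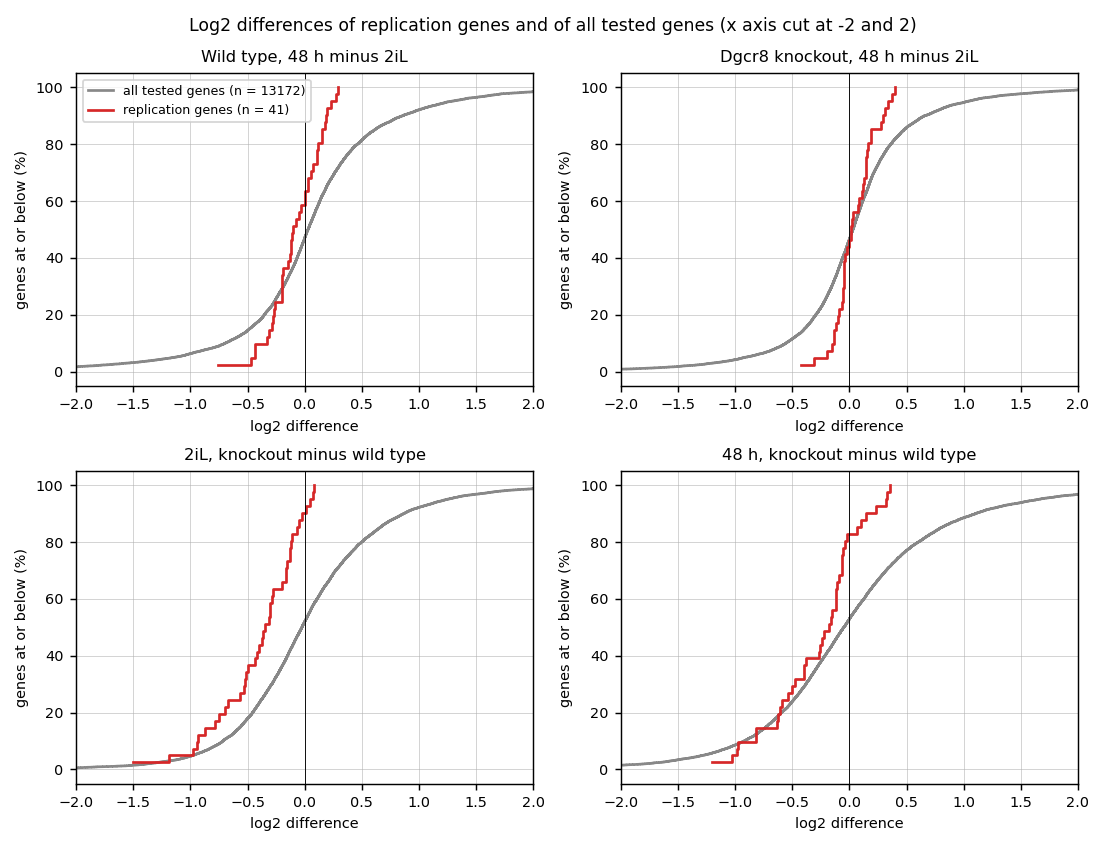
Share of genes (%) at or below each log2 difference, for the 41 replication genes (red) and all 13172 tested genes (grey), in the 4 comparisons; the axis is limited to −2 to 2. The red curve lies left of the grey one in the knockout-minus-wild-type panel for 2iL (medians −0.34 and −0.02) and is narrower than the grey one in both panels of change with time.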

How the data were processed

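The deposited total RNA table holds 1 FPKM value per gene and library; the submitters' processing notes name STAR 2.5.0, Cufflinks 2.2.1 and the mm10 build. The labels' protocols describe a dUTP (stranded) library, but the sources used here do not say whether counting used strand. Of 41258 rows (41202 identifiers), 40071 identifiers matched a symbol; 56 repeated rows were kept apart, and no replication gene was among them. The spans of 10 replication genes overlap another protein-coding gene: Orc1, Orc3, Orc4, Cdc45, Pold2, Pole2, Rfc4, Rpa1, Fen1 and Lig1. Small RNA libraries (8 of 16 samples) were not used.

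Values were fitted as log2(FPKM + 1) with limma 3.58.1 in R 4.3.3 (4 group means, intensity trend; residual df 4, prior df 3.11) for the 13172 genes that reached 1 FPKM in 2 or more of 8 libraries, with Benjamini-Hochberg adjustment over all of them and a threshold of 0.05. Fold changes on this scale understate changes of low genes. The median standard error over replication genes was 0.0553 (interaction 0.0782). Data were also simulated for the wild-type change on 13172 genes, with 50 genes changed at each size and all others equal between groups. Of changes of 0.3, 0.5, 1 and 2 log2 units, 28, 50, 90 and 98% were recovered, with 8 false calls. In the real data 56.5% of genes were called for that change, so the adjusted threshold was less strict there. The simulated rates therefore do not give the sensitivity for the replication genes.

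Members and lists were chosen with earlier results of these data known. Genes given in full were, per role, up to 3 called genes with the largest log2 difference in any comparison, plus genes called against their role's direction; for neighbouring lists, up to 4 leading called genes. Equal replicate numbers were not treated as pairs (correlations of replicate differences between groups −0.153 to 0.18).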

Additional observations from a re-analysis of the deposited data

Results flagged for a closer look

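For 14 replication genes the change from 2iL to 48 h differed between genotypes by a test of the difference itself (limma interaction). Given as knockout change minus wild-type change on the log2 scale, the largest were Orc5 (0.55), Mcm5 (0.55), Rrm2 (0.49), Pole (0.48), Gins1 (0.45) and Lig1 (0.45). Rpa2 (0.40), Mcm3 (0.37), Orc1 (0.33), Rrm1 (0.31), Rfc1 (0.29), Mcm10 (0.27) and Gmnn (0.22) followed, and Gins4 (−0.19) was the 1 gene in the other direction. The shapes were not alike: for Mcm5, Rrm2, Pole and Rrm1 a fall in wild-type cells faced a rise in knockout cells, for Orc1 both genotypes fell, and for Rfc1 only the knockout rise was called (0.40, against 0.11 in wild-type cells). The cause was not tested.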

How the results depend on the processing

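Each comparison was recomputed under up to 17 other settings. In the knockout change from 2iL to 48 h, median-ratio scaling gave 7 falls and a fit of only those 2 groups 2, in place of 4. In 2iL, genes higher in the knockout numbered 2 after median-ratio scaling, 5 after quantile normalization and 6 after scaling to the sum of FPKM, in place of 0; at 48 h they numbered 9 after quantile normalization and 9 after scaling to the sum, in place of 5. Negative interactions numbered 0 with a mean of at least 5 FPKM, 0 without intensity trend, 0 with the replicate block, 3 after median-ratio scaling and 4 after quantile normalization, in place of 1. Leaving out single libraries gave 2 to 6 rises and 10 to 19 falls in wild-type cells, 2 to 5 falls in knockout cells, 0 to 1 genes higher in knockout 2iL cells and 0 to 3 negative interactions; where a group kept 1 library, it was assumed to vary like the others.

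The median of all tested genes turned from −0.02 to 0.038 (median-ratio scaling) and 0.105 (scaling to the sum) in 2iL and from −0.05 to 0.025 and 0.098 at 48 h. Under quantile normalization Mcm2 turned to 0.062 in 2iL and 0.121 at 48 h, and Tyms to 0.058 and 0.07; scaling to the sum turned Mcm2 to 0.046 and Tyms to 0.045 at 48 h. With a mean of at least 5 FPKM, which tests fewer genes, all genes called higher numbered 2450 (wild-type change), 2280 (knockout change), 2532 (2iL) and 2893 (48 h), and negative interactions 1607, in place of 4074, 3490, 4034, 4389 and 2858.

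With the replicate block, replication genes rising and falling numbered 6 and 16 in wild-type and 9 and 3 in knockout cells, higher and lower 0 and 29 in 2iL and 5 and 24 at 48 h, and interactions 12 and 0. The crossed block, added after seeing the data, gave 5 and 17 in wild-type cells. Apart from scaling, causes were not tested; 2 libraries per group and unknown depth limit small differences.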
